A study of Mus musculus with 30 samples.

Results

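Distal intergenic peaks are the accessible chromatin regions that a peak annotation places outside its genes and away from their promoters. They were taken as every peak that the deposited annotation of the study's ATAC-seq peak set calls Distal Intergenic, which gave 38548 of 151630 peaks (25.4%). The study profiled mouse retinal ganglion cells (RGCs), neurons that send their axons through the optic nerve, sorted from dissociated retinas at intervals after the nerve was crushed. Accessibility was measured in 15 libraries: 6 without crush (day 0), 3 on day 1 after crush and 6 on day 3. The deposited sample table puts day 0 replicates 1 to 3, all of day 1 and day 3 replicates 1 to 3 in batch 2, and replicates 4 to 6 of days 0 and 3 in batch 1, so day 1 was measured in 1 batch alone. RNA-seq of sorted RGCs had values for 13 of 15 labelled libraries, of which 3 each on days 0, 1 and 3 were compared here. All mice carry a C57BL/6 strain label with no transgene named, except that 2 of the day 0 RNA libraries carry the labels C57BL/7 and C57BL/8. The sources used here do not give age, the marker of the sort or the number of mice per library, so the p-values measure the spread between libraries, which may be partly technical.

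ATAC-seq uses a transposase that cuts where chromatin is open, so the reads that fall in a region measure how accessible it is in the sorted cells. Open regions between genes include enhancers, which bind transcription factors and act on genes at a distance, insulators bound by CTCF, and the starts of transcripts that an annotation does not hold. Crush of the optic nerve sets off a program in RGCs that runs through the kinases DLK and JNK and the factors JUN, ATF3, ATF4, DDIT3 (CHOP) and CEBPG, and most of these cells later die. AP-1 family dimers, which contain JUN or ATF3, bind the 7-base motif TGANTCA.

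The members had a median width of 634 bases (range 102 to 19803), a median GC content of 47.2% and a median mean count of 64.1 reads per library. They lay a median of 17364 bases from the start site of the nearest gene in the annotation, with a range of 2001 to 606669 bases, and 5.84% lay beyond 100 kb. Of the members, 58.6% lay upstream of that start, and 14997 different genes were named. No member was removed by the filter on low counts, so every count below is over all 38548.

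Sequence could be read for the few members that overlap a RefSeq start window (250 bases before and 50 after a transcript start, build GRCm38.p6, the build of the peaks). There were 630 such members (1.63%), of which 141 (22.4%) were higher and 42 (6.67%) lower on day 3. The stretches below are the part of the 250 upstream bases that lies on the member, 5′ to 3′ on the strand of a long noncoding RNA. They were chosen after their values were seen, and all point the same way in both batches. Some rises not printed did so too. The Gm33714 member (log2 1.85, with 1.09 in batch 1 and 2.62 in batch 2) rose more than the Gm32011 member and has no match. The share of printed stretches with a match is thus no measure of its frequency among the members. Capitals mark a match to TGANTCA, TGACGTCA or TGATGNAA on either strand.
Gm30158 window (chr11:111512458-111512706, minus strand): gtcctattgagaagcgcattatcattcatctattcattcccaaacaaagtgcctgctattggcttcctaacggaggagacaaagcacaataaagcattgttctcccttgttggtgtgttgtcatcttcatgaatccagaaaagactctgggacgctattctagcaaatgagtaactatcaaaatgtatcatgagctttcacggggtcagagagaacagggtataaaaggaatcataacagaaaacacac
Gm33189 window (chr3:142434284-142434533, plus strand): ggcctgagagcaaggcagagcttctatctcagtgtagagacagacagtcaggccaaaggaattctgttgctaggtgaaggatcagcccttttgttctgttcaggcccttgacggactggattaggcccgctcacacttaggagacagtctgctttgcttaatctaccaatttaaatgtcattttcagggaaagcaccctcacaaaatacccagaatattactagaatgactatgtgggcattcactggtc
Gm32011 window (chr15:31091970-31092219, plus strand): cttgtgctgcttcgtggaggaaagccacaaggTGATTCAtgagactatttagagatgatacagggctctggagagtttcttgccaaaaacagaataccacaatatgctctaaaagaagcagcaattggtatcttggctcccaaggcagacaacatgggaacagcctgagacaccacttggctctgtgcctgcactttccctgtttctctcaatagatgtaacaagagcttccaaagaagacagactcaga
Gm51933 window (chr11:117568648-117568897, minus strand): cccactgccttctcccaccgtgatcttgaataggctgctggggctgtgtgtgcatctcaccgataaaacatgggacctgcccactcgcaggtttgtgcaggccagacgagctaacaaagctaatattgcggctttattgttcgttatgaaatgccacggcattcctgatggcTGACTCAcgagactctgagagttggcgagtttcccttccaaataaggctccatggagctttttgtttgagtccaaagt
Gm41286 window (chr15:31408708-31408957, minus strand): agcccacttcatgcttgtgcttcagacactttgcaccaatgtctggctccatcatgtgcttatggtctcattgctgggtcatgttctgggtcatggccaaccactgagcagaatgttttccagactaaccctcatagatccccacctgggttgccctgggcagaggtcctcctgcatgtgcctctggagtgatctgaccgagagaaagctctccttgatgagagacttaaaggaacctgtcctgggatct
Gm42322 window (chr4:133440367-133440616, minus strand): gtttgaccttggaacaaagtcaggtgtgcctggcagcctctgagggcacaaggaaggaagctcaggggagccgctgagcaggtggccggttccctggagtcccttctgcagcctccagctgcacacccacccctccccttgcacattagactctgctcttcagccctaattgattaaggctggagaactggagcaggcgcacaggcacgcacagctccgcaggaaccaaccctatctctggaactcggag
The first 4 sequences lie on members that were higher on day 3 and the last 2 on members that were lower. Levels below are CPM, each library's counts scaled to the same total over all peaks with trimmed-mean factors. The member with the Gm30158 window measured 0.140, 0.246 and 0.349 CPM on day 0 (lowest, median and highest of 6) and 0.815, 1.05 and 1.66 on day 3, a log2 fold change of 2.23 ± 0.22 (SE; adjusted p = 4.37e-07 by edgeR's quasi-likelihood F test over all peaks). Its groups did not overlap, and the change was 2.22 in batch 1 and 2.15 in batch 2. The Gm32011 member, whose printed stretch holds 1 TGANTCA match, measured 0.470, 0.662 and 0.958 CPM on day 0 and 1.63, 1.82 and 2.55 on day 3 (log2 1.63 ± 0.20, adjusted p = 3.73e-06). The Gm41286 member fell from 23.5, 35.1 and 41.3 CPM to 12.9, 19.2 and 22.6 (log2 -0.87 ± 0.15, adjusted p = 0.000188), again with no overlap. The Gm33189 and Gm51933 members had log2 changes of 1.88 ± 0.24 and 1.59 ± 0.26 with no overlap, and the Gm42322 member one of -0.85 ± 0.16 with overlapping ranges (10.5 to 19.8 CPM on day 0 and 6.41 to 12.5 on day 3). TGANTCA was present in 7.81% of all 32851 start windows and in 9.76% of the 615 windows with at least 150 bases on a member. It was present in 10.2% of the 127 on members higher on day 3 and equally in 10.2% of the 442 on members not called. On members lower on day 3 it was present in 2 of 46 (4.35%). CAGCTG, an E-box, was present in 16.3%, 22.6%, 14.2%, 24.2% and 30.4% of the same sets in that order. These windows hold few of the members and are start sites of transcripts, so these shares are not those of distal regions as a whole.

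Counts in peaks ranged from 20006724 to 72579102 per ATAC library. The deposited fraction of reads in peaks was 0.322 to 0.496 on day 0 and 0.157 to 0.186 on day 1. On day 3 it was 0.31, 0.173 and 0.185 in batch 2 and 0.197, 0.456 and 0.436 in batch 1. Low values on day 1 thus separated that day from day 0 completely, and this measure cannot be told apart from the day. Among the RNA libraries, 23 RGC identity genes summed to 14435 to 16299 CPM on day 0, against 834 to 910 for 14 Mueller glia and astrocyte markers, 249 to 273 for 11 bipolar markers and 111 to 165 for 15 microglia markers. Rod and cone markers summed to 286 to 1219 CPM on day 0, the widest range, and to 924 to 1223 on day 1, and microglia markers to 161 to 690 on day 1. The RGC sum was 10872 to 11556 on day 3, and the Mueller glia sum 696 to 865. None of the marker genes in the table was at 0 in every library.

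The share of counts in distal intergenic peaks was higher in most libraries after crush, though no test of it had an adjusted p under 0.05. They took 10.3 to 11.5% of all counts in peaks on day 0 (mean 11.0% ± 0.414, SD, n = 6), 12.2%, 12.4% and 12.7% on day 1, and 11.4 to 13.1% on day 3. On day 1 the share was 1.25 percentage points above the day 0 libraries of the same batch. All 3 libraries lay above all 3 there (exact permutation test within batch, two-sided, p = 0.1, the smallest it allows, adjusted p = 0.2). On day 3 the mean difference was 1.36 percentage points (exact permutation test within batch, two-sided, p = 0.01, adjusted p = 0.06 over 6 such tests). Day 3 and day 1 differed by -0.105 points (exact permutation test, p = 0.9). Promoter peaks took a smaller share after crush: 67.4 to 69.9% on day 0, 63.1 to 63.9% on day 1 and 62.7 to 67.8% on day 3. Among counts outside promoters, the share of distal intergenic peaks was 1.22 points lower on day 1 than on day 0 and 0.626 points higher on day 3 (exact permutation tests, p = 0.1 and p = 0.185). The libraries with the lowest fraction of reads in peaks on day 3 had the 3 highest shares, and whether that fraction bears on the share was not tested.

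**Figure D1:**
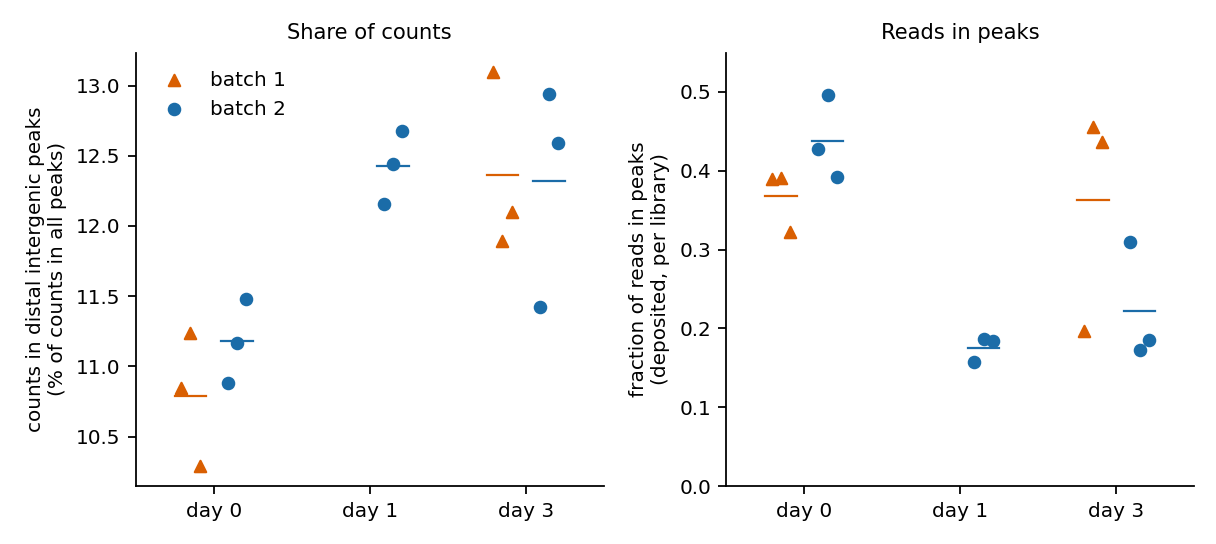
Left, the share of each library's counts in peaks that falls in distal intergenic peaks (%), and right, the deposited fraction of reads in peaks, by day; each point is 1 of 15 libraries, colour and shape give the batch and bars the mean of a day and batch. All 9 libraries after crush except day 3 replicate 1 (11.4%) lie above the day 0 range of 10.3 to 11.5%, and the 3 day 1 libraries have 0.157 to 0.186 of reads in peaks.

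The authors' peak calls of single libraries moved the other way. A call overlapped 46.8 to 70.1% of the members in the day 0 libraries, 27.9%, 38.6% and 38.7% in the day 1 libraries and 32.6 to 67.3% in the day 3 libraries. The day 1 mean was 28.7 points below day 0 of its batch (exact permutation test, p = 0.1, the smallest it allows, adjusted p = 0.2). The day 3 mean over both batches was 10.3 points below (exact permutation test, p = 0.19, adjusted p = 0.285). On day 3 the mean was 36.1% in batch 2 (day 0: 63.7%) but 59.6% in batch 1 (day 0: 52.6%). The fraction of reads in peaks was lowest in the libraries with the fewest members overlapped. Its part in the peak calls was not tested.

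On day 3, 8528 members (22.1%) were higher than on day 0 and 2650 (6.87%) lower (edgeR quasi-likelihood F test with batch in the model, Benjamini-Hochberg over all 151630 peaks, adjusted p under 0.05). Over all peaks, 16.4% were higher and 7.39% lower. The median log2 fold change over all members was 0.08. Among called members it was 0.95 for rises and -0.62 for falls, and 3912 members rose 2-fold or more and 105 fell 2-fold or more, beside 6.1% and 0.164% of all peaks. Promoter peaks were higher in 10.1% and lower in 8.97% of cases, and intron peaks in 18.2% and 6.76%. The differences between these classes were not tested.

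In both batches, which share no library, more members were higher than lower, but the numbers and their balance differed. The median log2 change over all members was 0.09 in batch 1 (59.8% positive) and -0.02 in batch 2 (48.7% positive). In batch 1 alone, 2712 members were higher and 146 lower (all peaks: 4.31% and 0.412%). In batch 2 alone, 8083 were higher and 4499 lower (all peaks: 16.8% and 12.5%). The 2176 members higher in both are 80.2% of the batch 1 list and 26.9% of the batch 2 list, and the 126 lower in both are 86.3% and 2.80%. Of the 8083 members that were higher in batch 2, 93.1% had a positive change in batch 1 with a median log2 of 0.50, against 59.8% and 0.09 for all members, and none was lower there. When day 3 was limited to replicates 5 and 6, whose fraction of reads in peaks lay within the day 0 range, 2883 members were higher and 54 lower (all peaks: 4.88% and 0.243%). Of the falls, few passed in batch 1.

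Day 1 in batch 2 and day 3 in batch 1 also share no library. The 7349 members higher on day 1 in batch 2 (14.6% of all peaks were) had a median log2 change of 0.49 on day 3 in batch 1, and 91.8% were positive there. The 3604 members lower on day 1 in batch 2 (12.4% of all peaks were) had a median of -0.002 on day 3 in batch 1, and 49.6% were positive. Of the 7349, 1750 (23.8%) passed the test on day 3 in batch 1, against 7.04% of all members, and of the 3604, 1.94% were lower there.

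**Figure D2:**
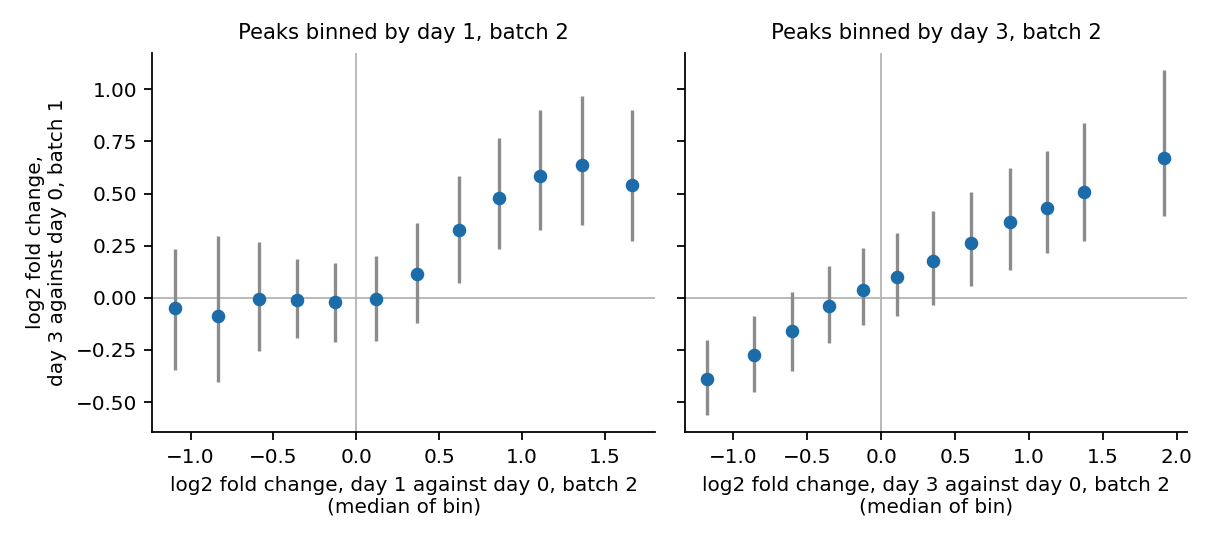
Distal intergenic peaks were binned by their log2 fold change in batch 2 (horizontal axis, bin median; left, day 1 against day 0, right, day 3 against day 0), and points and bars give the median and quartiles of the log2 fold change of day 3 against day 0 in batch 1. On the left, bins below 0 have batch 1 medians from -0.09 to -0.01 and the 4 highest bins from 0.48 to 0.64; on the right, the batch 1 median climbs from -0.39 to 0.67.

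The 8 largest rises and 8 largest falls per day were picked among called members with a mean count of at least 50. The pick also required that the 2 days compared did not overlap within a batch. Separation within a batch was thus fixed by the choice. On day 3, 49.4% of called rises and 30.2% of called falls had it. The largest rises on day 3 were at members with low counts before crush. Their nearest genes, 4989 to 234200 bases away, were pseudogenes and predicted transcripts. Such genes were nearest to most named day 3 falls too. The member at chr10:85739440-85740079, 4989 bases from the start of the predicted gene Gm47362, measured 0.289, 0.504 and 0.794 CPM on day 0 (lowest, median and highest of 6), 1.23, 0.609 and 1.81 in the day 1 libraries, and 3.19, 3.70 and 5.50 on day 3. That is an 8.02-fold rise (log2 3.00 ± 0.24, adjusted p = 8.94e-08), with every day 3 library above every day 0 and day 1 library. At chr11:17468293-17469276, 79010 bases from Gm23959, the values were 0.542, 0.580 and 1.20 on day 0, 2.13, 1.44 and 2.16 on day 1 and 4.18, 5.64 and 6.72 on day 3 (log2 2.88 ± 0.21, adjusted p = 4.84e-08). The groups were separate and in the order of the days.

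The other 6 of the 8 largest rises had log2 fold changes from 2.70 to 2.92 and the same order. They lay at chr18:27454530-27455333, chr10:21399079-21399749, chr13:39904060-39904782, chr18:26246503-26246920, chr8:57013776-57014321 and chr18:8161171-8161921. Both batches rose at each of them: the lowest change in batch 1 was 2.21 and the lowest in batch 2 was 2.74. The batches lay furthest apart at chr18:26246503-26246920, with 2.21 in batch 1 and 3.19 in batch 2. At day 0 the mean level in batch 2 was 0.558 to 1.18 times that in batch 1 over these 8 members. That was not so for the rises as a whole. The median day 0 difference, batch 2 minus batch 1, was log2 -0.88 over all members higher on day 3. It was -0.05 over those lower on day 3 and -0.20 over all members, and its part in the calls was not tested. The nearest RefSeq protein-coding genes of all 8 lay 2501 to 1700010 bases away. For a pair on chromosome 18 it was Celf4, an RNA-binding protein gene, 491983 and 1700010 bases away. Celf4 RNA was 1352 to 1461 CPM on day 0 and 1494 to 1691 on day 3, a log2 change of 0.16 ± 0.07 that did not pass the test (adjusted p = 0.0939).

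**Figure D3:**
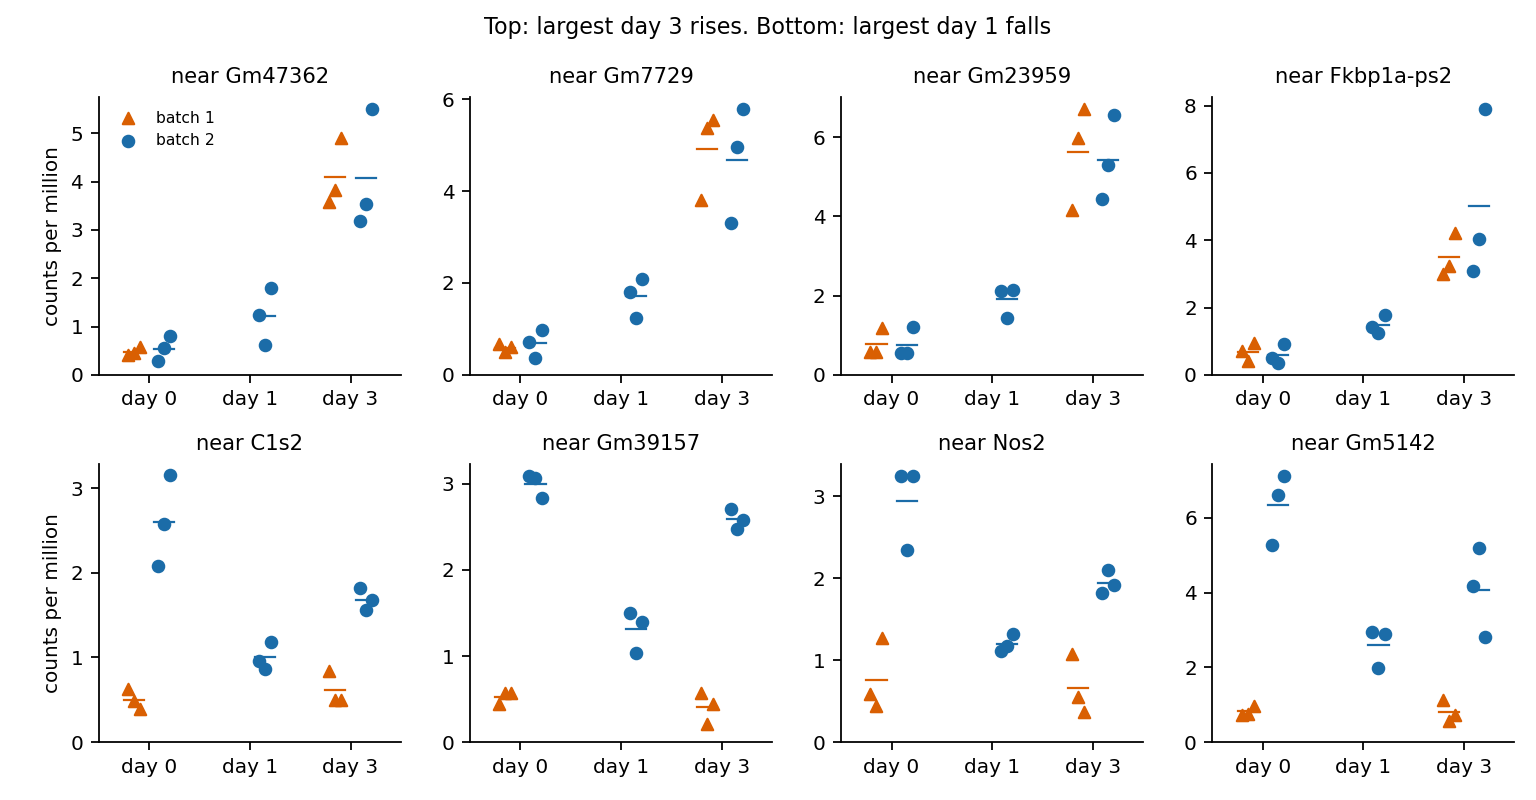
CPM of 8 distal intergenic peaks in each of 15 libraries by day, named by nearest gene; colour and shape give the batch and bars the mean of a day and batch. The top row holds the 4 largest rises on day 3 and the bottom row the 4 largest falls on day 1. All were picked for no overlap of the 2 days compared within a batch. In the top row both batches overlap at day 0 and all day 3 values exceed day 0. In the bottom row the day 0 values of batch 2 lie far above those of batch 1.

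Of the 8 largest falls on day 3, 5 were on the X chromosome. X members number 722 (1.87% of members), yet 15 of the 105 members at least 2-fold lower on day 3 were X-linked (14.3%). The X member at chrX:99495117-99495849, nearest to Pja1, a ubiquitin ligase gene, measured 4.24, 5.52 and 6.91 CPM on day 0, 1.62, 3.32 and 2.50 on day 1, and 0.670, 2.17 and 2.93 on day 3 (log2 -1.40 ± 0.20, adjusted p = 2.62e-05). Its day 0 and day 3 libraries did not overlap. The member at chrX:50549434-50551041 (log2 -1.49 ± 0.46, adjusted p = 0.0216) took only 2 levels: 8.25 to 13.3 CPM in 9 libraries and 1.05 to 1.66 in day 0 replicate 4, day 1 replicate 1 and day 3 replicates 3 to 6. Days 0 and 3 both held libraries at either level there.

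The X members as a whole were low in 3 libraries. Their summed level was 1400 CPM in day 1 replicate 1, 1512 in day 3 replicate 3 and 1705 in day 3 replicate 4, against 1952 to 2428 in the other 12. Their share of the members' counts was 0.296 percentage points lower on day 3 than on day 0 (exact permutation test within batch, p = 0.01, not adjusted). X members were singled out by the falls in these same libraries, so this p-value is no independent support for a fall. On day 3, 13.6% of X members were higher and 12.3% lower, against 22.3% and 6.77% of autosomal members. What sets these libraries apart was not tested, and counts on autosomes alone were close to the whole (8430 higher and 2561 lower).

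Of the 3 autosomal members among the largest falls, 1 had separate groups. At chr15:74052323-74053718, 27793 bases from Gm7935, levels were 7.47, 9.75 and 12.5 CPM on day 0, 5.58, 6.16 and 4.42 on day 1, and 3.17, 4.28 and 6.29 on day 3 (log2 -1.19 ± 0.15, adjusted p = 7.3e-06). Day 1 lay below the day 0 range as well. At chr8:59403592-59404089 the log2 change was -1.17 ± 0.20 and at chr10:22496123-22496541 it was -1.21 ± 0.21, and at both the day 0 and day 3 ranges overlapped across batches.

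On day 1, 3130 members (8.12%) were higher and 437 (1.13%) lower than on day 0, beside 5.44% and 2.4% of all peaks (7.84% in either direction). The median log2 change was 0.08, 1472 members rose 2-fold or more (all peaks: 2.01%) and 29 fell 2-fold or more (all peaks: 0.0468%). Promoter peaks were higher in 2.52% and lower in 6.90%. These day 1 counts depend on single libraries: 157 members were higher without day 1 replicate 3, 215 without day 1 replicate 2 and 423 without day 0 replicate 1. With the fraction of reads in peaks as a further term, 356 were higher and 7 lower. Day 0 and day 1 libraries with the same replicate number deviated together, and with the replicate block 2020 members were higher and 162 lower on day 1.

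The clearest rise on day 1, among members picked for separate day 0 and day 1 libraries in batch 2, lay near a sodium channel gene. The member at chr2:65441522-65442192, 53039 bases from the start of Scn3a, measured 0.448, 0.647 and 1.10 CPM on day 0, 1.50, 1.85 and 1.88 on day 1 and 2.37, 3.10 and 4.02 on day 3. Its log2 changes were 1.60 ± 0.22 on day 1 (adjusted p = 0.00651) and 2.16 ± 0.17 on day 3 (adjusted p = 5.07e-08), with 1.94 in batch 1 and 2.31 in batch 2 on day 3, and none of its days overlapped. Scn3a RNA had a mean of 166 CPM on day 0 and 128 on day 3 (n = 3 each), a fall by day 3 (log2 -0.38 ± 0.09, adjusted p = 0.00386). The members at chr2:9530642-9531145 near Gm13220 and chr1:38757573-38758193 near 2610300A13Rik also rose on both days and in both batches.

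At the other 5 of the 8 largest day 1 rises, day 3 replicates 5 and 6 were the lowest libraries of that day. The member at chr18:3117965-3118405 measured 0.687 to 2.75 CPM on day 0, 3.75, 3.41 and 4.17 on day 1, and 2.52, 3.51, 3.35, 3.54, 0.733 and 0.967 in day 3 replicates 1 to 6. These 2 libraries had 0.456 and 0.436 of their reads in peaks and the other day 3 libraries 0.173 to 0.31. Its day 1 change was log2 1.69 ± 0.45 (adjusted p = 0.0319, and 0.0537 with the replicate block), and its day 3 change was -0.09 in batch 1 alone. Members at chr13:12856922-12857939, chr13:12858302-12859124, chr1:85344830-85345762 and chr1:85296640-85297317 had the same pattern, with day 3 changes of 0.28, 0.43, 0.07 and -0.10 in batch 1. With the replicate block the day 1 rises of the last pair did not pass (adjusted p = 0.0511 and 0.0725). The part of the fraction of reads in peaks in these rises was not tested.

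The 8 largest falls on day 1 were all members whose day 0 level differed between the batches. At chr6:124639915-124640477, 3830 bases from the complement protease gene C1s2, day 0 values were 2.08, 2.58 and 3.15 CPM in batch 2 and 0.63, 0.49 and 0.39 in batch 1. The day 1 libraries of batch 2 measured 0.96, 0.86 and 1.18, a log2 change of -1.26 ± 0.25 (adjusted p = 0.0104), and on day 3 it was -0.32 (adjusted p = 0.282). The day 1 values lay below batch 2 day 0 and above batch 1 day 0. Over the 8 members, the mean at day 0 was 2.62 to 7.73 times as high in batch 2 as in batch 1 (median 5.34). Over the 8 largest day 1 rises it was 0.296 to 0.61 times as high. For all members called on day 1, the median day 0 difference, batch 2 minus batch 1, was log2 -0.79 for rises and 0.67 for falls. The batch term of the model removes such a difference only if it is the same on each day, which cannot be checked for day 1. The fall at chr8:33968109-33968719 (log2 -1.23 ± 0.22) lay 38187 bases from Rbpms, an RGC marker gene whose RNA fell on both days (log2 -0.56 ± 0.07 on day 1, adjusted p = 0.000117, and -1.18 ± 0.07 on day 3, adjusted p = 1.8e-09). That peak was back at 2.48 to 2.71 CPM in the batch 2 libraries on day 3, near its day 0 values of 2.84 to 3.09.

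Between day 1 and day 3, 458 members were higher on day 3 and 51 lower (1.19% and 0.132%, beside 0.987% and 0.193% of all peaks). A change of 2-fold or more was present at 229 and 11 of them, beside 0.39% and 0.0343% of all peaks. The 458 had a median log2 change of 0.13 on day 1 against day 0 and 1.17 on day 3. The 51 had 0.78 on day 1 and -0.04 on day 3. No member passed without day 1 replicate 1 or without day 1 replicate 2, so this list rests on each of those libraries.

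The share of rises grew with distance from genes. On day 3, 15.3% of members 2 to 5 kb from the nearest start were higher, 18.3% at 5 to 10 kb, 25.1% at 25 to 50 kb, 28.1% at 50 to 100 kb and 32.9% beyond 100 kb. On day 1 the share went from 4.33% to 16.0% over the same bins. The order held in each batch, from 4.41% to 11.9% in batch 1 and from 14.9% to 30.1% in batch 2, while the share lower on day 3 stayed between 5.99% and 7.47%. The share lower on day 1 was 1.46% at 2 to 5 kb and 0.222% beyond 100 kb. Neighbouring members share genomic context, so these shares are given without a test.

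**Figure D4:**
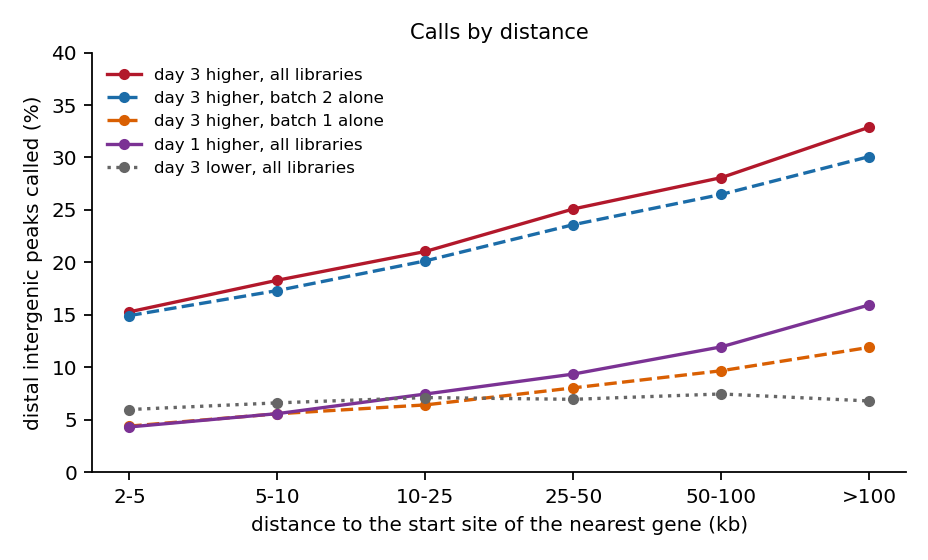
Percentage of distal intergenic peaks called higher or lower (adjusted p under 0.05, vertical axis) by distance to the start site of the nearest gene in kb (horizontal axis), for all libraries and each batch alone. The share higher on day 3 goes from 15.3% at 2 to 5 kb to 32.9% beyond 100 kb, while the share lower stays between 5.99% and 7.47%.

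When the members were split into 5 equal bins by mean level, 22.6% of the weakest bin and 21.6% of the strongest were higher on day 3, but 3.90% and 10.5% were lower. On day 1 the strongest bin had fewer rises (3.57% against 9.35% in the weakest) and more falls (3.68% against 0.285%). Members under 40% GC were higher on day 3 in 25.3% of cases and those over 55% GC in 22.3%. Within batch 1 these shares were 9.16% and 2.75%, and within batch 2 they were 24.0% and 27.5%, so the order by GC turned between batches.

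Among 645 genes that are the nearest gene of at least 8 members, 77 had as many members higher on day 3 as not, or more, 4 had as many lower as not, or more, and 246 had members of both kinds. Every member was higher for 2 genes, chosen here after their values were seen. All 10 members nearest to Nkd1, an inhibitor of Wnt signalling, on chr8:88470564-88604706 were higher, with a median log2 change of 0.85. Their summed level in batch 2 was 13.2, 10.3 and 14.8 CPM on day 0, 22.4, 21.4 and 30.0 on day 1 and 27.0, 37.0 and 40.8 on day 3. In batch 1 it was 34.4, 24.1 and 34.6 on day 0 and 35.0, 38.4 and 39.1 on day 3, a median log2 change of 0.25 with 1 of 10 members called. The day 0 values of batch 1 lay between the day 0 and day 3 values of batch 2 or within the latter.

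All 8 members nearest to Gm49792 on chr17:3007374-3038928 were higher as well (median log2 0.87, with 0.43 in batch 1 and no call there). The 8 members nearest to Gm10076 on chr14:105664470-105733939 held in both batches, with medians of 1.04 in batch 1 and 1.51 in batch 2 and 5 and 6 members higher. The 19 members nearest to Gm48527 and 15 nearest to Gm18262 on chromosome 13 did not: their medians were 1.85 and 1.99 in batch 2 and 0.19 and 0.28 in batch 1, and no member of either was higher in batch 1. Near 2900041M22Rik on chromosome 11, 6 of 11 members were lower and 1 was higher. The 1 higher member, at chr11:117568299-117569309, is the one with the Gm51933 window printed above (log2 1.59 ± 0.26, adjusted p = 0.000106).

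The 13 gene lists describe what lay next to the members, with a gene's members taken as those that have it as nearest gene. The counts are to be read against the 22.1% of all members that were higher and the 6.87% that were lower on day 3, with a median log2 change of 0.08. Of 30 members next to RGC identity genes, 8 (26.7%) were higher and 1 (3.33%) lower on day 3 (median log2 -0.03), near the shares of all members. The member at chr13:28931268-28932553, 21160 bases from Sox4, a SoxC factor of ganglion cell development, measured 0.813, 1.83 and 2.44 CPM on day 0, 3.30, 2.46 and 4.90 on day 1 and 5.45, 7.40 and 12.4 on day 3 (log2 2.23 ± 0.24, adjusted p = 8.47e-07). Each day lay above the last, and both batches passed the test (1.76 and 2.61). Sox4 RNA fell from 8.66 to 17.1 CPM on day 0 to 1.97 to 5.24 on day 3 (log2 -1.85 ± 0.33, adjusted p = 0.000255). Peak and RNA thus moved in opposite directions at this gene.

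Among 50 members next to axon injury genes, 11 (22.0%) were higher and 2 (4.00%) lower (median 0.11), again near the shares of all members. The member 4790 bases from Gal, the gene for the neuropeptide galanin, at chr19:3419334-3419624 measured 0.705, 0.859 and 1.23 CPM on day 0, 1.44, 0.971 and 1.15 on day 1 and 1.79, 2.08 and 3.54 on day 3 (log2 1.34 ± 0.18, adjusted p = 1.59e-05). Gal RNA also rose (log2 1.69 ± 0.27, adjusted p = 8.74e-05). The member next to Hspb1, a small heat shock protein gene, at chr5:135884687-135884928 went from 0.393, 0.557 and 0.653 CPM to 1.03, 1.34 and 2.10 on day 3 (log2 1.34 ± 0.20, adjusted p = 5.12e-05). Day 0 and day 3 were separate at both, and Hspb1 RNA rose by day 3 (log2 2.47 ± 0.19, adjusted p = 1.94e-08). The member 99768 bases from Gap43, a growth cone protein gene, rose less (log2 0.88 ± 0.14, adjusted p = 9.45e-05), and its day 0 range of 2.30 to 6.04 CPM overlapped the day 3 range of 4.23 to 8.70 across the batches, though not within either. Gap43 RNA rose by log2 1.27 ± 0.09 (adjusted p = 1.17e-08).

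In the DLK and JNK list, 11 of 36 members (30.6%) were higher and 2 (5.56%) lower (median 0.26, all members 22.1% and 6.87%), and the 3 named members all lay next to MAP kinase phosphatase genes, whose products switch such kinases off. Next to Dusp6, chr10:99250603-99251394 rose from 0.847, 1.36 and 2.17 CPM to 1.87, 3.02 and 5.65 on day 3 (log2 1.36 ± 0.20, adjusted p = 2.73e-05), with overlap across batches. Next to Dusp16, a JNK phosphatase gene, chr6:134804649-134805805 rose from 1.84, 2.36 and 3.83 CPM to 3.88, 5.59 and 8.04 (log2 1.18 ± 0.17, adjusted p = 3.46e-05). Next to Dusp10 the change was 0.79 ± 0.15 (adjusted p = 0.000548). RNA rose for Dusp16 (log2 3.63 ± 0.14, adjusted p = 5.15e-12) and Dusp10 (log2 1.16 ± 0.22, adjusted p = 0.000442), and Dusp6 had a log2 change of -0.26 ± 0.32 (adjusted p = 0.562).

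The integrated stress response list, the genes that ATF4 and its partners control when protein synthesis is stressed, had few called members: 3 of 31 (9.68%) were higher and 2 (6.45%) lower (median 0.09). The member at chr11:31461911-31462142, 91837 bases from Stc2, a secreted glycoprotein gene, rose from 0.144, 0.358 and 0.786 CPM to 0.670, 1.24 and 2.01 (log2 1.83 ± 0.26, adjusted p = 2.91e-05), with 1 day 3 library inside the day 0 range. The member next to Phgdh, the first enzyme of serine synthesis, rose by 0.81 ± 0.16 (adjusted p = 0.000897), and the one next to Ddit4, an inhibitor of mTORC1, fell (log2 -0.54 ± 0.14, adjusted p = 0.00796). RNA rose for Stc2 (log2 3.64 ± 0.31, adjusted p = 5.71e-08) and Phgdh (log2 4.94 ± 0.50, adjusted p = 5.43e-07). The changes of RNA were far larger than those of the peaks at both genes. Of 20 members next to cell death genes, 3 were higher and none lower (median 0.15), next to Bmf, Pmaip1 and Bik, which code for BH3-only proteins. The Bik call was lost with the replicate block (adjusted p = 0.0484 without it and 0.0581 with it). The Bmf member had log2 0.80 ± 0.15 (adjusted p = 0.000574), and its RNA 0.07 ± 0.38 (adjusted p = 0.905). The Pmaip1 member had log2 0.44 ± 0.16 (adjusted p = 0.0419, and 0.0536 with the replicate block), and Pmaip1 RNA rose by log2 4.07 ± 0.88 (adjusted p = 0.00133).

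Excitability and synapse genes had 62 members, of which 14 (22.6%) were higher and 9 (14.5%) lower on day 3 (median 0.08). The share higher was near that of all members, and the share lower was above their 6.87%. The member 7205 bases from Kcna1, a potassium channel gene, at chr6:126653589-126654009 measured 0.326, 0.498 and 0.917 CPM on day 0, 1.62, 0.926 and 1.29 on day 1 and 1.41, 2.35 and 2.63 on day 3 (log2 2.12 ± 0.23, adjusted p = 1.09e-06). Kcna1 RNA had a log2 change of 0.08 ± 0.11 (adjusted p = 0.608). The members next to the calcium channel gene Cacna1e (log2 1.98 ± 0.22, adjusted p = 1.12e-06) and the NMDA receptor gene Grin2a (log2 1.73 ± 0.20, adjusted p = 2.56e-06) rose, while RNA of both genes fell (log2 -0.61 ± 0.16, adjusted p = 0.00697, and -2.19 ± 0.18, adjusted p = 3.21e-08).

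Members next to markers of other retinal cells were also measured, since a sort can hold such cells, and in bulk samples fewer cells of a type and less signal per cell cannot be told apart. Next to bipolar markers none of 13 was higher and 4 (30.8%) were lower on day 3 (median -0.31). The member 2722 bases from Scgn, a calcium-binding protein gene, measured 1.83 to 3.89 CPM on day 0 and 0.957 to 2.41 on day 3, with overlapping ranges (log2 -0.77 ± 0.19, adjusted p = 0.00529). Bipolar marker RNA summed to 249 to 273 CPM on day 0 and 189 to 224 on day 3, and its part in these falls was not tested. Next to Mueller glia and astrocyte markers, 16 of 37 members (43.2%) were higher and 3 (8.11%) lower (median 0.37). The member at chr15:8716125-8717750, 5361 bases from Slc1a3, a glial glutamate transporter gene, measured 2.37, 2.14 and 3.37 CPM in batch 2 and 6.08, 3.75 and 4.67 in batch 1 on day 0, and 6.08, 7.63 and 7.99 in batch 2 and 6.61, 7.96 and 8.36 in batch 1 on day 3 (log2 1.06 ± 0.17, adjusted p = 7.34e-05). Slc1a3 RNA was 3.26 CPM on day 0 and 3.90 on day 3 (means of 3, adjusted p = 0.67), so it stood at a low level on both days. RNA of the Mueller glia markers summed to 834 to 910 CPM on day 0 and 696 to 865 on day 3, and the part of glial cells in these rises was not tested.

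Amacrine and horizontal cell markers had 5 of 24 members (20.8%) higher and 2 (8.33%) lower (median 0.13), near the shares of all members. The member next to Onecut1, a factor of horizontal cells that ganglion cells also use, rose from 1.77, 2.52 and 3.13 CPM to 4.19, 7.51 and 8.96 (log2 1.49 ± 0.16, adjusted p = 7.93e-07), and its RNA fell (log2 -1.65 ± 0.30, adjusted p = 0.000251). That next to Prox1 fell by 0.96 (adjusted p = 0.000961). RNA of 13 amacrine and horizontal markers summed to 889 to 1283 CPM on day 0 and 616 to 743 on day 3, and its part was not tested. Microglia markers had 1 of 26 higher and 1 lower (median 0.04), vascular markers 2 of 9 higher (median 0.07), oligodendrocyte markers 1 of 8 lower (median -0.23), and rod and cone markers 1 of 3 lower (median -0.30). When each member was given to the nearest RefSeq protein-coding gene body instead, the bipolar list had 3 of 33 higher and 15 lower and the Mueller glia list 50 of 113 higher and 10 lower. Higher members then numbered 27 of 78 (34.6%) for RGC identity, 51 of 178 (28.7%) for axon injury and 14 of 75 (18.7%) for integrated stress response. They were 9 of 39 for cell death, 19 of 79 for DLK and JNK, 25 of 133 for excitability and synapse and 12 of 77 for amacrine and horizontal. Microglia had 12 of 55 (21.8%), vascular 19 of 53 (35.8%), oligodendrocyte 2 of 15 and rod and cone 0 of 7. Several list shares thus depended on how the nearest gene was taken.

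**Figure D5:**
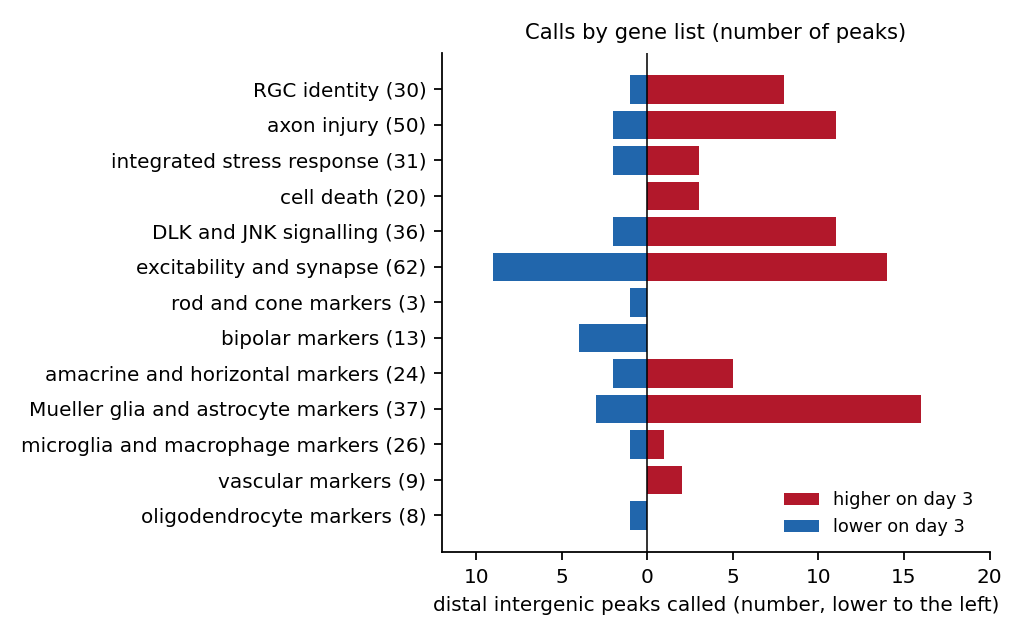
Number of distal intergenic peaks called higher (right, red) or lower (left, blue) on day 3 against day 0, by list of the nearest gene; the number in brackets is all peaks of the list. Mueller glia and astrocyte markers have 16 of 37 higher and bipolar markers none higher and 4 of 13 lower.

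RNA of the nearest genes was lower more often than higher, in percent of genes tested, next to both kinds of member on day 3. Of 4676 genes that were nearest only to members higher on day 3 among those called, 1115 were tested in RNA: 22.3% were higher and 26.8% lower on day 3 (all genes tested: 20.4% and 20.1%), with a median log2 of -0.03. Of 1363 genes nearest only to lower members, 483 were tested, and 17.0% were higher and 31.3% lower (median -0.09). Genes with members but no call had 21.7% higher and 22.0% lower. On day 1, genes near higher members had 7.98% higher and 8.45% lower RNA, and those near lower members 9.66% and 5.52% (all genes tested: 5.93% and 5.45%). The share of genes with lower RNA on day 3 was thus above that of all genes near rises and near falls, and most so near falls. These differences were not tested. With the nearest RefSeq protein-coding gene in place of the annotation's gene, the shares near higher members on day 3 were 21.8% higher and 26.4% lower.

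The authors' footprint tables list sites of 4 injury factors that were called bound on at least 1 day. Of 20364 ATF3 sites, 3986 (19.6%) lay in distal intergenic peaks, and 3322 members (8.62%) held one. An ATF3 site lay in 19.5% of members higher on day 3, 2.64% of those lower and 5.81% of the rest. For CEBPG these shares were 9.92%, 1.74% and 3.35%, for DDIT3 6.99%, 1.09% and 2.38%, and for ATF4 6.50%, 1.43% and 2.20%. The ATF3 sites within members were called bound in 24.2% on day 0, 66.5% on day 1 and 82.2% on day 3. Over all ATF3 sites of the table these shares were 32.6%, 72.7% and 81.5%, so the climb was not particular to the members. For the other 3 factors the shares within members were 21.3 to 23.1%, 63.7 to 65.8% and 79.0 to 79.6%, and over all their sites 25.1 to 27.7%, 69.3 to 70.9% and 77.4 to 78.4%. Footprint calls come from the same ATAC reads as the counts and from motifs these factors share with their relatives, so they are no independent evidence of binding. Of the 8 largest day 3 rises, 6 held at least 1 ATF3 site, and none of the 8 largest falls did.

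The authors' deposited table of comparisons gives 6390 members higher and 3289 lower on day 3, and 880 higher and 939 lower on day 1, at the same threshold of 0.05. Its median log2 change over the members is -0.02 on day 3 and -0.01 on day 1, against 0.08 on both days here. On day 1 it thus has more falls than rises, unlike the 3130 rises and 437 falls given above. Over all 151630 peaks the authors' deposited table gives 17836 higher and 12985 lower on day 3, and 2520 higher and 3253 lower on day 1.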

How the data were processed

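ATAC-seq was analysed in 15 libraries and RNA-seq in 13 of 15 labelled ones. Per the submitters' processing notes, the builds were GRCm38 and mm10 and the tools included Bowtie2, MACS2, ChIPseeker, featureCounts, STAR and HTSeq. The authors deposited raw counts per peak and per gene, the fraction of reads in peaks with other quality ratios, peak lists with MACS2 scores, fold values (a ratio) and −log10 q, tables with log2 fold changes and p-values, and footprint scores. Samples were grouped by title. Counts were tested with edgeR 4.0.16 (R 4.3.3): TMM scaling, filterByExpr, quasi-likelihood F test, day and batch as terms for ATAC and day alone for RNA, Benjamini-Hochberg over all 151630 peaks or 13737 genes, threshold 0.05. The standard error is the log2 change divided by the root of F. CPM used all counts in peaks and TMM factors. Peak calls needed an overlap of 1 base (bedtools 2.31.1). Named peaks had a mean count of at least 50: the 8 largest called changes per direction, and up to 3 per gene list by adjusted p; a named peak left out of the text is not reported here. The members and the 13 lists were chosen with earlier results of these data known. The scripts were tested on simulated data. No genome was used, so motifs were counted only in RefSeq start windows, an addition made after seeing the data. Same-numbered libraries of days 0 and 1 deviated together (3 correlations of 0.131 to 0.292, against -0.184 to -0.00964 for other numbers), a pairing taken from the data, and those of the other days did not, so the replicate block is given for day 1. Alternatives are given in the closing section. Depth was 20006724 to 72579102 counts in peaks per library.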

Additional observations from a re-analysis of the deposited data

Results flagged for a closer look

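Of 148 groups of 6 libraries looked at, 7 held 1 library far from the others, where chance gives about 1 in 20. Day 3 replicate 3 was the highest at 5 members: 7.89 CPM at chr10:21399079 (next 4.22), 4.45 at chr8:57013776 (next 3.07), 3.54 next to Gal (next 2.23), 2.10 next to Hspb1 (next 1.41) and 3.16 next to Bik (next 2.41). Day 0 replicate 6 measured 2.75 CPM at chr18:3117965 (next 1.40), and day 0 replicate 4 measured 3.83 next to Dusp16 (next 2.53).

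The changes of day 3 and day 1 against day 0 differed, by the test of day 3 against day 1 (edgeR, adjusted p under 0.05), in 458 members upwards and 51 downwards. Among the named members the log2 differences were 1.81 at chr10:85739440 (adjusted p = 0.0141), 1.51 at chr18:27454530 (0.0153), 1.52 at chr11:17468293 (0.0153), 1.64 at chr10:21399079 (0.0218), 1.46 at chr13:39904060 (0.0335), 1.32 at chr18:26246503 (0.0467), 1.26 at chr8:57013776 (0.0197) and 1.45 at chr18:8161171 (0.0218). They were 0.96 at chr8:33968109 (adjusted p = 0.0393), 1.04 next to Gal (0.0413) and 0.68 next to Cldn5 (0.0406).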

How the results depend on the processing

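Counts below are members called higher and then lower, and the cause of a move was not tested. When any 1 library was left out, day 3 kept 7352 to 8828 rises and 1856 to 3515 falls, day 1 gave 157 to 4565 and 1 to 900, and day 3 against day 1 gave 0 to 1000 and 0 to 358. On day 1, DESeq2 gave 3664 and 1394, DESeq2 size factors 2861 and 880, library size scaling 7925 and 90, a lowess trend removed 722 and 227, a 2-fold minimum 1472 and 29, batch 2 alone 7349 and 3604, only the 2 days 6667 and 3483, the fraction of reads in peaks as a term 356 and 7, members beyond 10 kb 2524 and 244, and no batch term 0 and 0 with edgeR (3786 at an unadjusted p under 0.05). On day 3, DESeq2 gave 8055 and 3473, library size scaling 8973 and 1929, lowess 7539 and 3780, a 2-fold minimum 3912 and 105, batch 1 alone 2712 and 146, batch 1 without day 3 replicate 4 2717 and 57, batch 2 alone 8083 and 4499, day 3 replicates 5 and 6 alone 2883 and 54, the fraction term 6077 and 1059, and no batch term 3916 and 945. Between day 3 and day 1, DESeq2 gave 1495 and 284, library size 251 and 541, lowess 600 and 88, a 2-fold minimum 229 and 11, batch 2 alone 2995 and 1673, only the 2 days 2798 and 1836, the fraction term 1268 and 992, and no batch term 0 and 0 with edgeR (4764 at an unadjusted p under 0.05). Lowess moved the median log2 change of all members from 0.08 to -0.04 on day 1 and to -0.01 on day 3.

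Replicate numbers paired days 0 and 1 but not the other days (12 same-number pairs in all, correlations from -0.189 to 0.292, 6 of them above 0.1). The fit with the replicate block gave 2020 and 162 on day 1, 8255 and 2324 on day 3 and 331 and 14 between the days. Of 92 named calls, 79 passed under the block and 13 did not.

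The share of counts with counts outside promoters as the denominator differed by -1.22 points on day 1, 0.63 on day 3 (exact permutation test, p = 0.185) and 1.35 between the days. Permuted over all libraries, the day 1 difference was 1.44 (exact permutation test, p = 0.0119). With 1 library left out the differences were 1.10 to 1.40 on day 1, 1.17 to 1.58 on day 3 and -0.416 to 0.344 between the days (0.344 without day 3 replicate 1 and 0.0207 without day 1 replicate 3). Those of the peak calls were -30.9 to -25.1, -13.6 to -7.30 and -2.56 to 2.84 (-2.28 without day 3 replicate 1 and -2.56 without day 1 replicate 1). With DESeq2, RNA was lower on day 1 for 13.8% of genes near higher and 10.3% near lower members. With 1 RNA library left out, the shares of RNA higher and lower on day 1 were 6.34 to 7.98% and 3.76 to 8.92% near higher members and 4.14 to 11.0% and 2.76 to 5.52% near lower ones. On day 3 they were 19.3 to 22.7%, 23.8 to 27.4%, 14.9 to 17.2% and 26.7 to 31.3%.

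Named members that turned sign were few. With the fraction term, chr18:3117965 was at -0.088 on day 1 and -0.10 on day 3, and chr1:85296640 at -0.24 on day 1. In batch 1 alone on day 3 they were at -0.085 and -0.10. With day 3 replicates 5 and 6 alone, and in batch 1 without day 3 replicate 4, chr18:3117965 was at -1.02 and -1.05, chr1:85296640 at -0.82 and -0.84, chr1:85344830 at -0.46 and -0.48, chr13:12858302 at -0.19 and -0.22, and the member next to Mbp at 0.053 and 0.023.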
